A study of Rattus norvegicus with 6 samples.

Results

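AP-1 is a family of dimeric transcription factors built from Jun proteins (Jun, Junb, Jund) and Fos proteins (Fos, Fosb, Fosl1, Fosl2), and Atf3 is a related factor of the same basic leucine zipper class that can pair with Jun. These 8 genes were picked by their symbols from the 18696 genes of rat dorsal root ganglion for which group averages were deposited. No cut on their values was used, but earlier results of these data were known when they were chosen. For 3 of them, Fos, Junb and Jund, expression was also given in each library, in a table of 1637 genes. The other 5, Atf3 among them, have group averages alone, so the spread between libraries is unknown for them and no test of SNI against sham can be made.

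The tissue was the dorsal root ganglion of SD rats, a cluster outside the spinal cord that holds the cell bodies of sensory neurons. In the SNI group (spared nerve injury, 3 libraries), ligatures were tied on the tibial nerve and the common peroneal nerve, both of which were then cut, and the sural nerve was kept whole. In the sham group (3 libraries), the sciatic nerve and its branches were exposed and the wound was closed. Because the sural nerve is spared, a ganglion of this model is known to hold both cut and uncut neurons. The sources used here do not give the time after surgery, the spinal level, the side or whether animals were pooled. No label ties a library to an animal of its own, so the p-values rest on differences between libraries that may be technical.

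As background, Jun and Fos proteins join through a leucine zipper and bind DNA at the AP-1 site. Jun proteins can pair among themselves or with a Fos protein, while Fos proteins need a Jun partner. JNK, a stress kinase, phosphorylates Jun. In sensory neurons, Jun and Atf3 are classical markers of a cut axon and are linked to axon regrowth, and in Schwann cells Jun directs the repair state. Fos and Junb are immediate early genes that many stimuli induce within minutes, handling of tissue included.

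Over all genes, the average read counts given by the authors came to 18.6 M in SNI and 18.6 M in sham. The depth of a single library is unknown. Expression is given in TPM, a share of the transcripts of a library corrected for gene length, so levels of different genes may be set side by side. Pearson correlations of log2(TPM + 1) across the 1637 genes, which are not independent replicates, lay between 0.994 and 0.996 within a group and between 0.95 and 0.956 across groups, and no library stood apart. All 13 marker genes of sensory neurons were well above 1 TPM in both groups, and 10 of them had a lower average in SNI, at a summed level of 28352 TPM in SNI and 33389 TPM in sham.

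Of the 8 genes, 7 had a higher average in SNI and 1, Jund, a lower one, beside 53.1% of all genes with a higher average. Their median log2 ratio of averages, with 1 TPM added to each average, was 0.95, beside 0.02 over all genes. On that scale 4 of the 8, Atf3, Fos, Jun and Junb, were at least 2-fold higher in SNI, beside 2.32% of all genes, and 0 were at least 2-fold lower, beside 0.407%. Of the 8, 5 (62.5%) stood in the authors' deposited table of higher genes, which held 3.63% of all genes with averages, and 0 stood in the authors' deposited table of lower genes, which held 0.695% of them. The 5 were Atf3, Jun, Junb, Fos and Fosl2, and the 3 outside both tables were Jund, Fosb and Fosl1. As the 8 genes were chosen with earlier results of these data known, these shares are a description and no independent evidence.

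**Figure D1:**
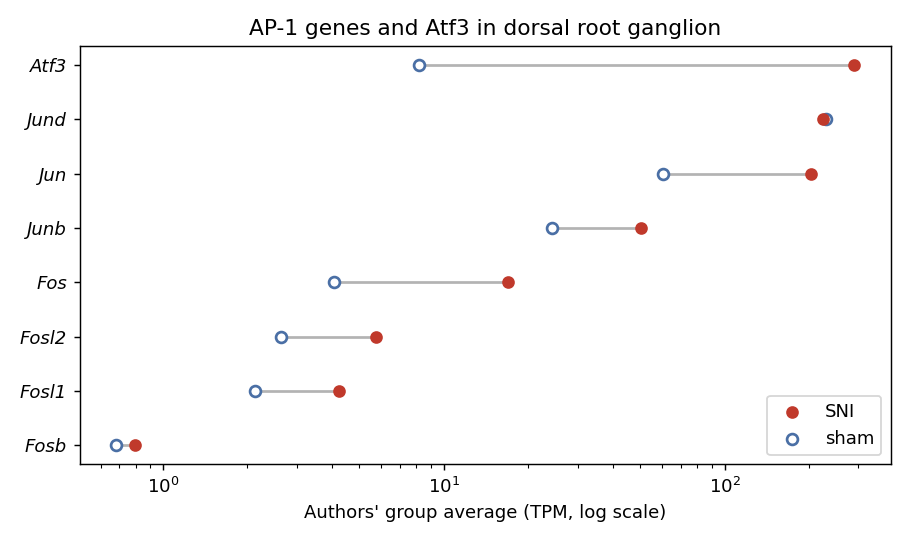
The authors' average of each of the 8 genes in SNI (filled red) and sham (open blue), in TPM on a log axis, ordered by the SNI average; averages carry no error. Atf3 stands at 288 TPM in SNI and 8.13 TPM in sham, while the points of Jund at 224 and 231 TPM nearly coincide.

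Atf3 (NCBI Gene ID 25389), a factor known to be barely present in intact sensory neurons and induced once their axon is cut, had an average of 288 TPM in SNI and 8.13 TPM in sham, a 35.4-fold ratio. Its average read count was 4957 in SNI and 139 in sham. It was the most abundant of the 8 in SNI and the fourth in sham, and its level ranked 578th of 18696 genes in SNI and 10058th in sham. Its log2 ratio of averages with 1 TPM added, 4.99, was the 9th highest of all genes. By the plain ratio Atf3 ranked 21st among the 11902 genes with an average of at least 5 TPM in either group. Set against Jun, with which it can pair, Atf3 stood at 1.42 times the level of Jun in SNI and at 0.135 times in sham. Without values per library the spread of Atf3 is unknown.

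Among the Jun genes, Jun (Gene ID 24516) encodes the Jun protein best known as a target of JNK. Its RNA had an average of 203 TPM in SNI and 60.1 TPM in sham. The reads behind these averages, summed over 3 libraries, were 17222 in SNI and 5070 in sham, a ratio of 3.40 with an exact 95% interval of 3.29 to 3.51. Such intervals, here and below, cover counting error alone and take both groups as equally deep, as the sums of the averages were. They do not hold the spread between libraries.

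Junb (Gene ID 24517), an immediate early Jun protein that activates some AP-1 targets and restrains others, had 51.7, 47.9 and 51.7 TPM in SNI libraries 1 to 3 and 25.8, 22.1 and 25.2 TPM in sham libraries 1 to 3. All 3 SNI libraries lay above all sham libraries, which held for 35.3% of the genes tested (31.3% had all SNI libraries below all sham libraries). The mean was 50.4 ± 2.21 TPM in SNI and 24.4 ± 2.01 TPM in sham (SD, n = 3 each). On the log2 scale Junb rose by 1.02 ± 0.07 (fold change ± SE, limma adjusted p = 1.97e-06), in a table in which 32% of the 1596 genes tested were called higher and 29.2% lower.

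Jund (Gene ID 24518), the Jun protein that is broadly expressed in resting cells, had 222.5, 210.3 and 239.9 TPM in SNI libraries 1 to 3 and 223, 206 and 262.5 TPM in sham libraries 1 to 3. The groups overlapped, and both the lowest and the highest value were found in sham. The mean was 224 ± 14.9 TPM in SNI and 231 ± 28.9 TPM in sham (SD, n = 3 each). The log2 fold change of −0.03 had a 95% interval of −0.23 to 0.16 and did not pass the test (limma adjusted p = 0.747), and its sign turned when SNI replicate 2 or sham replicate 3 was left out (0.01 and 0.06). The summed reads of Jund, 10247 in SNI and 10443 in sham, had a ratio of 0.981 (exact 95% interval 0.955 to 1.01).

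**Figure D2:**
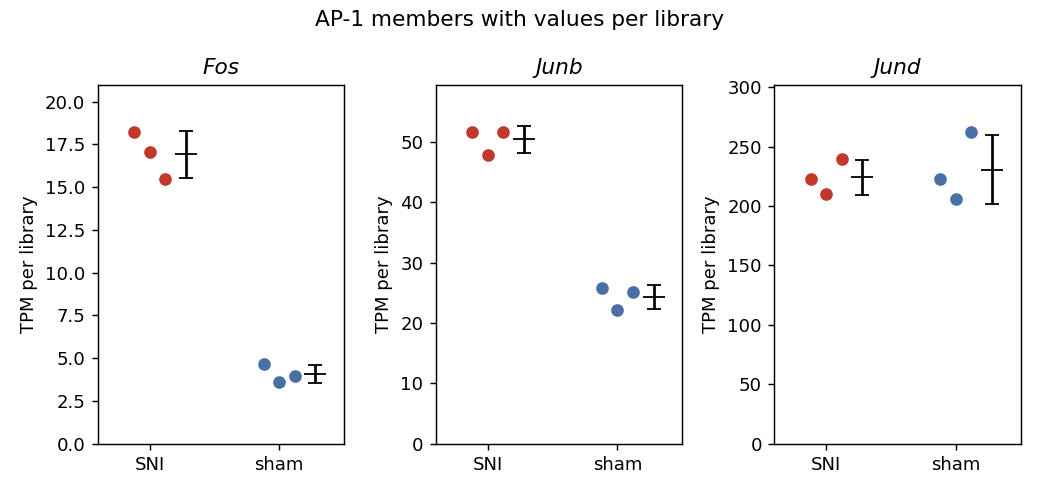
TPM of Fos, Junb and Jund in each of the 3 SNI libraries (red) and 3 sham libraries (blue), with the mean and SD of a group as a black bar beside its points; each axis starts at 0. The groups are apart for Fos and Junb and overlap for Jund.

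With the levels set against one another, the RNA of the Jun genes summed to 477 TPM in SNI and 315 TPM in sham, a 1.51-fold ratio. Jun made up 42.4% of that sum in SNI and 19.1% in sham, Junb 10.6% in SNI and 7.73% in sham, and Jund 47.0% in SNI and 73.2% in sham. Jun stood at 0.903 times the level of Jund in SNI and at 0.261 times in sham. The ratio of Junb to Jund could be taken in each library and was 0.225 ± 0.00866 in SNI and 0.106 ± 0.00997 in sham (SD, n = 3 each). It was higher in each SNI library than in any sham library, at the smallest two-sided p an exact permutation test of 3 against 3 can give (p = 0.1, and 0.1 after adjustment over the 3 pairs of members compared).

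**Figure D3:**
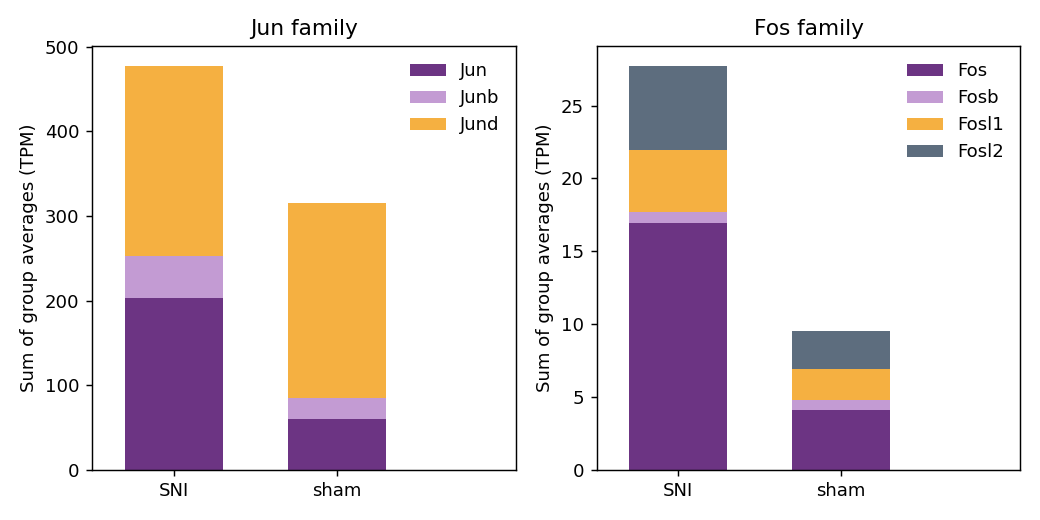
The authors' group averages of RNA stacked within the Jun genes (left panel) and the Fos genes (right panel), in TPM, with SNI beside sham. The 2 panels have different scales and the averages carry no error. The segment of Jund is about as tall in both groups while that of Jun is taller in SNI, and Fos makes up most of the taller Fos stack in SNI.

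Junb and Jund, the Jun genes with values per library, can be set side by side in sequence. They are the member that rose and the member that did not pass. The 250 bases before the annotated start of each are shown, from RefSeq on the GRCr8 build, which may not be the build of the expression files. Capitals mark the motifs searched for.
Junb, chr19:40080876-40081125, plus strand: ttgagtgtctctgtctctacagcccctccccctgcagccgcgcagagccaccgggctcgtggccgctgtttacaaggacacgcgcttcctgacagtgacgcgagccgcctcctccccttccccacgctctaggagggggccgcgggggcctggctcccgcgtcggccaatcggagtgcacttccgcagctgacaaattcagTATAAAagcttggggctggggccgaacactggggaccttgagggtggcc
Jund, chr16:18769772-18770021, minus strand: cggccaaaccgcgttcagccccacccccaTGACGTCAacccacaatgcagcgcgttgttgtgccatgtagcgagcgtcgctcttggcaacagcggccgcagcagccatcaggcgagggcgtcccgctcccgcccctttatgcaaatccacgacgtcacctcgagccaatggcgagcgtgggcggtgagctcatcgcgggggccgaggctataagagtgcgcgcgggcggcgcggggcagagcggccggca
On both strands, the letters searched for were TGANTCA (the AP-1 site), TGACGTCA (the cyclic AMP response element, bound by CREB and ATF factors) and TATAAA (the TATA box), none of which overlap here. The Junb window held TATAAA, beginning 49 bases before the start, and the Jund window held TGACGTCA, beginning 221 bases before it. Of 33469 windows of the same length in RefSeq, 12.9% held TATAAA, 1.59% held TGACGTCA and 6.34% held TGANTCA. Windows were at hand for 5 of the 8 genes (Junb, Jund, Fosb, Fosl1 and Fosl2), and the letters TGANTCA were found in 0 of these 5. The Fosb window held TATAAA too, on the other strand, beginning 180 bases before the start. Those of Fosl1 and Fosl2 held none of the motifs. Whether a motif goes with a change in expression was not tested. Both windows shown were rich in G and C, at 66.0% for Junb and 68.4% for Jund, beside a median of 51.2% over all windows.

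Among the Fos genes, Fos (Gene ID 314322) encodes the immediate early partner of Jun. Its RNA had 18.2, 17.0 and 15.5 TPM in SNI libraries 1 to 3 and 4.67, 3.62 and 3.93 TPM in sham libraries 1 to 3. The lowest SNI library lay above the highest sham library, which held for 35.3% of the genes tested. The mean was 16.9 ± 1.38 TPM in SNI and 4.07 ± 0.539 TPM in sham (SD, n = 3 each). On the log2 scale Fos rose by 1.82 ± 0.10 (fold change ± SE, limma adjusted p = 4.24e-07), the 38th highest of the 1596 genes tested. Of those genes, 32% were called higher and 29.2% lower. The summed reads were 731 in SNI and 174 in sham.

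Fosl2 (Gene ID 25446), also called Fra-2 and known from bone and cartilage, had an average of 5.74 TPM in SNI and 2.64 TPM in sham. Its summed reads were 150 in SNI and 68 in sham, a ratio of 2.21 (exact 95% interval 1.65 to 2.98). Fosl1 (Gene ID 25445), or Fra-1, a Fos protein without the transactivation domain of Fos, averaged 4.25 TPM in SNI and 2.13 TPM in sham. Its summed reads, 192 in SNI and 95 in sham, gave a ratio of 2.02 (exact 95% interval 1.57 to 2.61). On the log2 scale that ratio was 1.02, while the lowest ratio of average reads of any gene in the authors' deposited table of higher genes was 1.01, so Fosl1 lay outside that table with a ratio near its lower end.

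Fosb (Gene ID 100360880), whose truncated form is known to build up in neurons under repeated stimulation, had an average of 0.797 TPM in SNI and 0.683 TPM in sham. It was the least abundant of the 8 in both groups. The summed reads were 71 in SNI and 61 in sham, and the exact 95% interval of their ratio, 0.815 to 1.67, spanned 1, so a difference was not detectable from counting error alone at this depth. The RNA of the 4 Fos genes summed to 27.7 TPM in SNI and 9.52 TPM in sham, a 2.91-fold ratio. Fos made up 61.1% of that sum in SNI and 42.8% in sham.

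Fos could be set against Junb and Jund within each library. The ratio of Fos to Junb within a library was 0.336 ± 0.0316 in SNI and 0.167 ± 0.0127 in sham (SD, n = 3 each), a difference of 1.01 on the log2 scale, with all SNI libraries above all sham libraries. The ratio of Fos to Jund was 0.0758 ± 0.00977 in SNI and 0.0178 ± 0.00300 in sham (SD, n = 3 each). For each of these ratios an exact permutation test gave p = 0.1 (two-sided), the smallest it can give. In both groups the summed RNA of the Jun genes was far above that of the Fos genes. The sums were 477 against 27.7 TPM in SNI and 315 against 9.52 TPM in sham, and protein was not measured.

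By their averages the order of the 8 genes in SNI was Atf3, Jund, Jun, Junb, Fos, Fosl2, Fosl1 and Fosb. In sham it was Jund, Jun, Junb, Atf3, Fos, Fosl2, Fosl1 and Fosb. Thus Atf3 changed its place and the other 7 kept their order. For the neighbours Junb and Fos in SNI the ranges over libraries were apart, and for other neighbours in SNI at least 1 gene has no value per library. The variation coefficient between libraries was 8.15% in SNI and 13.2% in sham for Fos, 4.38% in SNI and 8.24% in sham for Junb, and 6.62% in SNI and 12.6% in sham for Jund.

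In the per-library table, the genes nearest in pattern to each member were found by the root mean square distance of their log2(TPM + 1) values, centred on the sham mean, over the 6 libraries. Nearest to Fos were the cell cycle inhibitor Cdkn1a (distance 0.0852), the serotonin synthesis gene Tph2, the class II chaperone Cd74, the beta globin Hbb and the class II gene RT1-Da. Cdkn1a averaged 45.5 ± 1.70 TPM in SNI and 11.7 ± 1.63 TPM in sham (n = 3 each). The genes nearest to Fos had log2 fold changes of 1.68 to 1.95, beside 1.82 for Fos. A small distance of this kind calls for a change of like size, and does not by itself show that genes vary together across libraries. Nearest to Junb were the small GTPase Rasd2 (distance 0.0593), the heparan sulfate sulfotransferase Hs3st4, Dgcr6, Medag and the fatty acid ligase Acsl4. Nearest to Jund, whose groups overlap, were Oas1f (distance 0.0435), Col8a2, Per3, Lrrc71 and Wasf3.

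Averages of genes of other cell types also differed between the groups. All 9 erythrocyte markers, Hbb included, had a higher average in SNI, and summed over the 9 they lay between 4203 and 4308 TPM in SNI libraries and between 1310 and 1505 TPM in sham libraries. All 8 macrophage markers had a higher average, with a sum of averages of 239 TPM in SNI and 107 TPM in sham. Of them 5 (Cd68, Itgam, Aif1, Adgre1 and Cx3cr1) stood in the authors' deposited table of higher genes (3.63% of all genes). The 2 with values per library, Cd163 and Mrc1, did not pass (log2 fold changes 0.04 and 0.18, limma adjusted p = 0.731 and 0.0727). Of 8 Schwann cell markers 6 had a lower average, with a sum of 7672 TPM in SNI and 12932 TPM in sham. Of the remaining lists, 4 of 4 T cell markers and 5 of 6 satellite glia markers had a higher average in SNI, with sums of 8.47 and 8049 TPM in SNI and 4.29 and 8799 TPM in sham. The satellite glia sums were mostly Apoe, the marker of that list with a lower average (7526 TPM in SNI and 8348 TPM in sham). Endothelium, fibroblasts and meninges, and skeletal muscle each had 2 of 5 markers higher and 3 lower. No marker was listed at 0 in either group. Their part in the values of Atf3, Jun, Junb and Fos was not tested, and in a whole ganglion fewer cells of a type and less RNA per cell cannot be told apart.

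Of 33 genes of the JNK and ERK route, 0 stood in either of the authors' deposited tables. The tables held 3.63% (higher) and 0.695% (lower) of all genes, so 0 of 33 was near those shares. In SNI 20 had a higher and 13 a lower average, beside 53.1% of all genes with a higher one. The median log2 ratio was 0.07, beside 0.02 over all genes. Map3k12 (DLK, the kinase that relays axon injury to JNK) averaged 37.4 TPM in SNI and 38.5 TPM in sham. The JNK genes Mapk8 and Mapk9 averaged 28.5 and 90.9 TPM in SNI and 23.6 and 89.9 TPM in sham. These are levels of RNA, and JNK acts through phosphorylation, which was not measured.

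Of 5 genes of the route with values per library, 3 fell, 0 rose and 2 did not pass, beside 29.2% of all genes tested that fell and 61.2% called in either direction, so the share called was near that of the table. The JNK scaffold Mapk8ip2 fell to 155 ± 4.64 TPM in SNI, against 178 ± 6.76 TPM in sham (n = 3 each; log2 fold change −0.20, limma adjusted p = 0.00605). The neuronal JNK gene Mapk10 fell to 113 ± 6.45 TPM in SNI, against 129 ± 2.72 TPM in sham (n = 3 each; log2 fold change −0.19, limma adjusted p = 0.0105), a call lost without SNI replicate 1 (limma adjusted p = 0.0513). Map2k4, a kinase upstream of JNK, had a log2 fold change of −0.13 and a limma adjusted p of 0.0487, close to the threshold of 0.05. Its call was lost under 8 of 14 alternatives, at limma adjusted p up to 0.174, without SNI replicate 1. Dusp1, a phosphatase that switches MAP kinases off and an immediate early gene itself, was named after its value was seen and averaged 35.6 TPM in SNI and 19.5 TPM in sham.

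Among 36 other factors of the basic leucine zipper class, 25 had a higher and 11 a lower average in SNI, beside 53.1% of all genes with a higher one. Their median log2 ratio was 0.24, beside 0.02 over all genes. Of these, 7 stood in the authors' deposited table of higher genes (3.63% of all genes) and 0 in that of lower genes (0.695%). Nfil3, a repressor known to be induced in regenerating sensory neurons, averaged 17.8 TPM in SNI and 5.29 TPM in sham. Crem, whose short form ICER is induced by cyclic AMP, averaged 20.4 TPM in SNI and 9.49 TPM in sham. Others in that table were Batf, Batf3, Nfe2 and Cebpd. All 3 factors with values per library rose, beside 32% of all genes tested. Cebpd, an acute phase factor, rose to 100.4 ± 1.59 TPM in SNI, against 41.8 ± 4.71 TPM in sham (n = 3 each; log2 fold change 1.25, limma adjusted p = 7.99e-07), and Cebpb and Creb3 had log2 fold changes of 0.42 and 0.37.

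The other immediate early and dissection stress genes, 40 in number, had 32 higher and 8 lower averages in SNI, beside 53.1% of all genes with a higher one. Their median log2 ratio was 0.33, beside 0.02 over all genes. Of them 4 stood in the authors' deposited table of higher genes (3.63% of all genes) and 0 in that of lower genes (0.695%). Cebpd, among these 4, and Maff are also in the list of other basic leucine zipper factors, so each counts in both lists. The growth arrest gene Gadd45g averaged 62.1 TPM in SNI and 13.97 TPM in sham, Myc 20.8 TPM in SNI and 9.68 TPM in sham, and Nfkbiz, a regulator of NF-kappaB, 2.68 TPM in SNI and 0.987 TPM in sham. Of 8 with values per library 7 rose and 1, Ctgf, fell, beside 32% of all genes tested that rose and 29.2% that fell. Zfp36, which destabilizes cytokine mRNAs, rose to 38.1 ± 1.54 TPM in SNI, against 22.6 ± 1.02 TPM in sham (n = 3 each; log2 fold change 0.72), and Ctgf, a matrix-bound growth factor, fell to 7.89 ± 0.269 TPM in SNI, against 13.6 ± 1.37 TPM in sham (log2 fold change −0.71, limma adjusted p = 6.18e-05).

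Further immediate early genes of that list lay on both sides, and those given here were named after their values were seen. Ier5 averaged 18.9 TPM in SNI and 9.99 TPM in sham, the antiproliferative gene Btg2 15.4 TPM in SNI and 8.43 TPM in sham, and the zinc finger factor Klf6 62.6 TPM in SNI and 38.4 TPM in sham. Egr1, also a zinc finger factor, averaged 16.1 TPM in SNI and 11.1 TPM in sham. The nuclear receptor Nr4a1 averaged 45.0 TPM in SNI and 45.5 TPM in sham, and Arc, an activity gene of synapses, 2.08 TPM in SNI and 2.69 TPM in sham. These averages have no error, and whether they differ from Fos in their response was not tested.

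**Figure D4:**
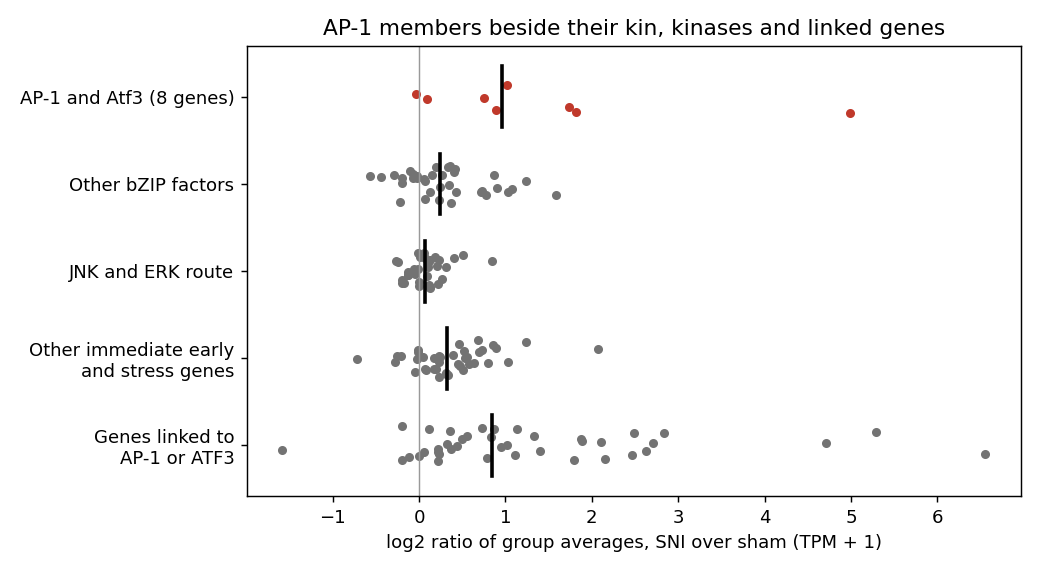
The log2 ratio of group averages (TPM + 1), SNI over sham, of each of the 8 genes (red) and of the members of 4 lists (grey), with the median of each row as a black bar; points are spread vertically for legibility. The 8 genes have a median of 0.95, the JNK and ERK route has a median of 0.07, and genes linked to AP-1 or ATF3 spread the most.

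Of 40 genes linked to AP-1 or ATF3 in injured neurons and Schwann cells, 35 had a higher and 4 a lower average in SNI. Over all genes 53.1% had a higher one. The median log2 ratio was 0.85, beside 0.02 over all genes. Of the 40, 20 stood in the authors' deposited table of higher genes (3.63% of all genes) and 1, the collagenase Mmp13, in that of lower genes (0.695%). Mmp13 averaged 0.840 TPM in SNI and 4.51 TPM in sham. The list was drawn up from knowledge of nerve injury with earlier results of these data in view, so its direction is no independent evidence. All 10 members tested rose, beside 32% of all genes tested.

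Among those linked to ATF3, the small heat shock protein Hspb1 rose to 1565 ± 8.18 TPM in SNI, against 714 ± 26.1 TPM in sham (n = 3 each; log2 fold change 1.13, limma adjusted p = 2.34e-08). Sprr1a, an axon growth gene, averaged 41.8 TPM in SNI and 0.0933 TPM in sham, where its average read count was only 0.667. Sox11, a factor of regenerating neurons, averaged 20.8 TPM in SNI and 2.06 TPM in sham. Among those linked to Jun, Gal, a peptide transmitter, rose by a log2 fold change of 4.71. The integrin Itga7 averaged 203 TPM in SNI and 137 TPM in sham, and the hyaluronan receptor Cd44 136.1 TPM in SNI and 81.5 TPM in sham, and both stood in neither of the authors' deposited tables.

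Other members of the list were the peptide Npy and the cytokine signalling inhibitor Socs3, which rose by log2 fold changes of 6.68 and 2.64. The cytokine Il6 averaged 5.77 TPM in SNI and 0.0367 TPM in sham, where its average read count was 0.333. Of the genes that Jun is known to control in repair Schwann cells, Gdnf and Olig1 lay under 1 TPM in both groups. The average read count of Gdnf was 9.67 in SNI and 2 in sham. Shh averaged 37.9 TPM in SNI and 30.2 TPM in sham, and the neurotrophin receptor Ngfr 519 TPM in SNI and 597 TPM in sham. Bdnf, also in the list, averaged 19.6 TPM in SNI and 6.81 TPM in sham and stood in the authors' deposited table of higher genes. Artn and Sox2, in the list too, averaged 0.737 and 34.6 TPM in SNI and 0.737 and 29.5 TPM in sham. Gdnf, Olig1, Shh, Ngfr, Bdnf, Artn and Sox2 were named after their values were seen, so they do not give the direction of a gene set. Their averages have no error.

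The authors' deposited table of higher genes carries pathway names from KEGG for 312 of its 699 genes. In that table Jun was given 26 pathways and Fos 19, of which 14 were common to both, while Junb was given 2, Fosl2 1 and Atf3 0. Osteoclast differentiation, a pathway for which Fos is essential, held 4 of the 8 genes (Jun, Junb, Fos and Fosl2) among its 24 genes in the authors' deposited table. TNF signaling held Jun, Junb and Fos among its 18 genes there, and MAPK signaling held Jun and Fos among its 22.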

How the data were processed

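RNA was sequenced from 3 SNI and 3 sham libraries of rat dorsal root ganglion. Per the file headers, the values deposited by the authors were TPM per library (1637 genes), group averages of TPM and of read count (18696 genes), and tables of higher (699) and lower genes. The deposited averages of reads are estimated counts that need not be whole. The sources used here do not name the aligner, the counter, the build, the test behind the authors' tables or whether strand was kept, so reads of overlapping or antisense genes cannot be told apart. Columns named control were taken as sham, the other group of the labels. The mean TPM over a group's libraries differed from the deposited average by under 0.001 TPM in all 1628 genes of both tables. TPM keep no depth.

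A gene was tested where its TPM averaged 1 or more across libraries (1596 genes, 41 left out). The test was limma 3.58.1 in R 4.3.3 on log2(TPM + 1), fitted with a trend on intensity and no term besides group. Its p-values were adjusted by Benjamini-Hochberg over all genes tested and called under 0.05. Fold changes on that scale understate the change of low genes. The table of 1637 genes is a selection by the authors with no rule given, so the share called within it is high. Ratios of group averages have no test. Exact 95% Clopper-Pearson intervals were set on summed reads (3 times the average) where the sums were whole to 0.001, which those of Atf3 were not. The intervals and the TATAAA motif were added after seeing the data. Other steps ran in Python 3.11.15 (pandas 2.3.3, numpy 2.4.6, scipy 1.17.1, matplotlib 3.10.9).

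The 8 genes, 4 gene lists and 9 marker lists were chosen with earlier results of these data known. All 212 list entries were found in the files, 4 of them through the RefSeq gene table of GRCr8. Lists may share a gene, and Cebpd, Maff and Jdp2 were each counted in both lists that hold them. Named genes are the 8 members, in each list the 3 genes called with the largest fold change and the 3 members of the authors' tables outside the per-library table with the largest ratio of averages, a few kinases and targets, and the 5 genes nearest in pattern. Other genes are marked as named after their values were seen.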

Additional observations from a re-analysis of the deposited data

How the results depend on the processing

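Fos and Junb stayed higher in SNI past the threshold under all 14 alternative fits, at log2 fold changes of 1.60 to 2.03 and 0.95 to 1.06 (limma adjusted p up to 6.88e-06 and 2.29e-05). Jund passed under none of them, and its fold change lay between −0.111 and 0.0624 with 1 library left out, positive without SNI replicate 2 (0.0103) and without sham replicate 3 (0.0624). Leaving out 1 library at a time gave 445 to 524 genes higher and 387 to 477 lower in SNI, against 510 and 466 with all. With quantile normalization 402 were higher and 608 lower, and 18 genes of the 4 lists, against 19, were higher. Of the 4 lists, 4 genes were lower, and between 2 and 4 when 1 library was left out, with the 2 found without SNI replicate 1. The number of members at least 2-fold higher by average was 4, and 5 with a pseudocount of 0.1 or with average reads, as Fosl2 joined. Atf3 had a log2 ratio of 5.13 at a pseudocount of 0.1 and 5.15 by average reads, against 4.99. Whether equal replicate numbers pair the libraries cannot be settled with so few libraries per group. The deviations of same-numbered libraries correlated at −0.09, −0.06 and 0.19, and those of differently numbered ones at −0.29 to 0.29. With the replicate block 498 genes were higher and 447 lower, with Fos and Junb still called. For 5 of the 8 genes, the lack of values per library is the limit on any statement about spread.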
